A study of Homo sapiens with 10 samples.

Results

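The human microRNAs (miRNAs) miR-103 and miR-107 were described in cells of the established hepatocellular carcinoma line HuH-7 after 96 h with 1 µM lenvatinib or after 96 h without it. Lenvatinib is a kinase inhibitor that blocks receptors for VEGF and FGF. The members were the rows of each array whose probe name was hsa-miR-103a-3p, hsa-miR-107, hsa-miR-103a-2-5p or hsa-miR-103b, which gave 4 of the 2565 miRNA probes. The series holds 5 lenvatinib arrays and 5 control arrays, 1 single-colour 3D-Gene array per sample, with every sample from this 1 cell line in the same medium. The labels do not say whether the 5 samples of a group were separate cultures. The p-values below therefore cannot be read as covering a spread between cultures. Each limma p-value also draws on the spread of the other probes in the fit. The extraction text in the labels speaks of serum, but every sample is labelled as HuH-7.

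A miRNA is a short RNA that guides silencing proteins to messenger RNAs, mainly by pairing through its seed, the bases just after its 5′ end. MIR103A1, MIR103A2 and MIR107 are known to lie within introns of PANK3, PANK2 and PANK1, which encode pantothenate kinases, the first enzymes of coenzyme A synthesis. In mouse liver and fat, miR-103 and miR-107 are known as regulators of insulin sensitivity that act on caveolin-1, and in human cancer cells they are known to target DICER1, the nuclease that cuts miRNA hairpins.

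The 4 mature sequences are shown first because a single base separates the 2 main members. They come from RefSeq on GRCh38.p14, where all 4 names matched, and the capitals mark bases 2 to 8, the seed.
miR-103a-3p: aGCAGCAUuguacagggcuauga
miR-107: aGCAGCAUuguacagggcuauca
miR-103a-2-5p: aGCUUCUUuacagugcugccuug
miR-103b: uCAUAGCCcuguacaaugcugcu
miR-103a-3p and miR-107 are both 23 bases long, and the only substitution between them was G22C, counted from 1 at the 5′ end, with the miR-103a-3p base first. Their seed GCAGCAU occurred in only these 2 mature names of the sequence table. miR-103a-2-5p, from the other arm of the MIR103A2 hairpin, carries another seed. miR-103b was the exact reverse complement of miR-103a-3p, since its genes lie on the opposite strand at the same places, and 1 of its bases was unpaired against miR-107. How far the miR-103a-3p and miR-107 probes each detect the other miRNA was not tested.

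The 3 hairpins that yield these arms are shown next, because they place each arm in its host gene. The capitals mark the arms with a probe here. MIR107 lies at chr10:89592747-89592827 on the minus strand inside PANK1 (chr10:89579495-89645242), MIR103A1 at chr5:168560896-168560973 on the minus strand inside PANK3 (chr5:168548495-168579368), and MIR103A2 at chr20:3917494-3917571 on the plus strand inside PANK2 (chr20:3888781-3929887).
MIR107: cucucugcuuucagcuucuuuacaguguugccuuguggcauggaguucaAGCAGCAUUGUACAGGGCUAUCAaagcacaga
MIR103A1: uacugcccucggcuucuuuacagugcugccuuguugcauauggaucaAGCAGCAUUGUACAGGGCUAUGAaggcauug
MIR103A2: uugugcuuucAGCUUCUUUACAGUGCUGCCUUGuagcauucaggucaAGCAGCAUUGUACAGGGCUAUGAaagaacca
Each of these hairpins lies on the strand of its host gene. The MIR103A1 and MIR103A2 hairpins were identical at 63 of 78 positions and give the same 3p arm, so the miR-103a-3p probe reads the sum of 2 loci. The table places the genes of miR-103b, MIR103B1 and MIR103B2, on the strand opposite to the host genes.

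Before scaling, lenvatinib arrays were brighter than control arrays on most probes. Blank spots averaged 68.1 ± 9.88 in lenvatinib arrays and 33.4 ± 1.52 in control arrays (SD, n = 5 each), 2.04 times as bright (exact permutation test, two-sided, p = 0.00794, the smallest that 5 against 5 allows). The total background-subtracted signal of the miRNA probes was 1.72 times higher in lenvatinib arrays, and the median of the detected probes was 2.57 times higher. The spike controls were brighter too. On the log2 scale spike control 1 was at 14.4 to 15.1 in lenvatinib arrays and 13.4 to 13.6 in control arrays. Spike control 2 was at 14.6 to 14.9 in lenvatinib arrays and 13.2 to 13.6 in control arrays. The number of detected probes overlapped, with 1209 to 1497 in lenvatinib arrays and 1232 to 1546 in control arrays. No source used here gives a slide or scan batch, so a batch that followed the groups and the treatment cannot be told apart. The identity of the cells was checked with marker miRNAs. All 4 hepatocyte markers were detected on all 10 arrays, with a summed intensity of 12787 to 16926 in lenvatinib arrays and 4602 to 5665 in control arrays. In the limma fit on quantile-normalized values described below all 4 were called, where 21.5% of all tested probes were called. Of the 4, 3 were higher (miR-122-5p by 0.35, miR-192-5p by 0.45 and miR-194-5p by 0.59 on the log2 scale) and 1 lower (miR-885-5p, which fell by 1.22, adjusted p = 0.000121). After median scaling the 3 rises were not called, at -0.043 for miR-122-5p, 0.21 for miR-192-5p and 0.29 for miR-194-5p (limma adjusted p = 0.864, 0.356 and 0.154). The fall of miR-885-5p held there, at -1.08 (limma adjusted p = 0.000195). The summed intensity of the markers was at most 41.2 for erythroid cells, 32.1 for leukocytes and 20.7 for muscle on any array. Endothelial and stromal markers summed to 265 to 530 in lenvatinib arrays and 121 to 154 in control arrays, and none of these 4 markers passed in the quantile-normalized limma fit.

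miR-103a-3p gave one of the brightest signals of the arrays. Its background-subtracted intensity was 4058, 3971, 4737, 4197 and 5141 in lenvatinib replicates 1 to 5, against 1626, 1408, 1867, 1373 and 1905 in control replicates 1 to 5. Every lenvatinib array was brighter than every control array, and the ratio of the means was 2.70. This ratio is unscaled, so it includes the array-wide difference in brightness described above, which the spike controls also showed. In such bulk RNA, a change in the RNA per cell and in the make-up of the culture cannot be told apart. miR-107, the sequence with the single base changed, had a subtracted intensity of 3377, 3388, 3715, 3415 and 4060 in the lenvatinib arrays, against 1401, 1197, 1498, 1175 and 1412 in the control arrays. Here too the groups did not overlap, and the ratio of the means was 2.69. Non-overlap on this unscaled measure was the rule, since 83.9% of the 868 probes detected on all 10 arrays showed it.

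miR-103a-2-5p was detected on all 10 arrays but close to the limit. Its subtracted intensity was 19.8, 19.8, 16.5, 21.6 and 15.1 in the lenvatinib arrays, against 8.77, 11.1, 6.82, 8.64 and 8.07 in the control arrays. These values were 2.30 to 5.21 times the lowest detected value of the same lenvatinib array and 3.36 to 5.33 times that of the same control array. The groups did not overlap before scaling, and the ratio of the means was 2.14.

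miR-103b, the antisense sequence, was detected on none of the 5 lenvatinib arrays and on 1 of the 5 control arrays, where its raw brightness of 35.1 stood above a background of 32.9. Its raw brightness was 0.961 to 1.03 times background in the lenvatinib arrays and 0.981 to 1.07 times background in the control arrays. It was not well above background in either group, so no fold is given, and it was left out of the limma fit below. With no filter on dim probes, a limma fit gave it an adjusted p of 0.721, on values that lay at the floor on 9 of the 10 arrays.

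**Figure D1:**
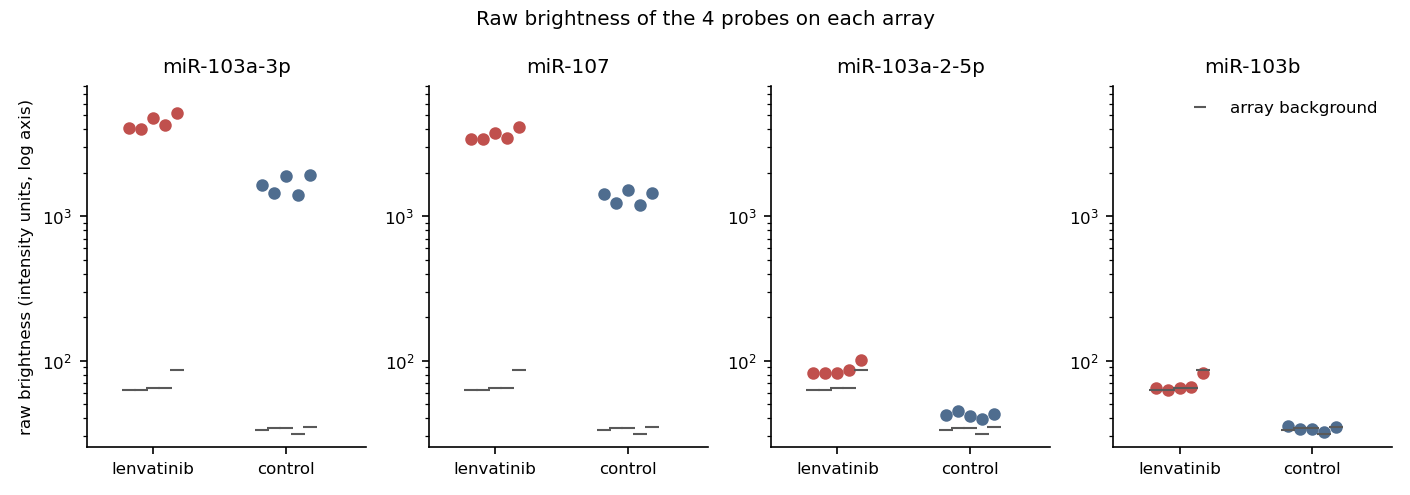
Raw brightness of the 4 probes in intensity units on a log axis, with 1 point per array (5 lenvatinib, 5 control) and a dash for the background of that array. The miR-103a-3p and miR-107 points lie far above background in both groups, miR-103a-2-5p lies just above it, and miR-103b lies on it.

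Scaling decided how much of the difference in miR-103a-3p and miR-107 remained. In the authors' globally normalized values, which set the median detected probe of each array to the same level, miR-103a-3p was 6428, 7700, 7491, 6884 and 5901 in the lenvatinib arrays, against 6812, 5704, 6767, 5807 and 7000 in the control arrays. The groups overlapped, and the ratio of the means was 1.07. For miR-107 the same values were 5350, 6570, 5875, 5601 and 4660 in the lenvatinib arrays, against 5869, 4851, 5429, 4970 and 5186 in the control arrays. They overlapped with a ratio of 1.07. For comparison, 22.4% of 858 probes did not overlap on this scale. miR-103a-2-5p overlapped as well, with a ratio of 0.861.

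Quantile normalization, which gives every array the same set of values and keeps only the order of its probes, separated the groups. On this log2 scale miR-103a-3p was 11.53, 11.53, 11.78, 11.53 and 11.69 in the lenvatinib arrays, against 11.14 in each of the 5 control arrays. miR-107 was 11.35, 11.29, 11.46, 11.29 and 11.53 in the lenvatinib arrays, against 10.97 in each control array. The control values were nearly tied because the probes held the same place on every control array. miR-103a-3p was the 20th and miR-107 the 21st brightest probe on all 5 control arrays. On the lenvatinib arrays miR-103a-3p ranked 14, 14, 11, 14 and 12, and miR-107 ranked 17, 18, 15, 18 and 14. A rank orders probe brightness and not the abundance of different miRNAs. miR-103a-2-5p held ranks 508 to 787 in the lenvatinib arrays and 431 to 641 in the control arrays.

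**Figure D2:**
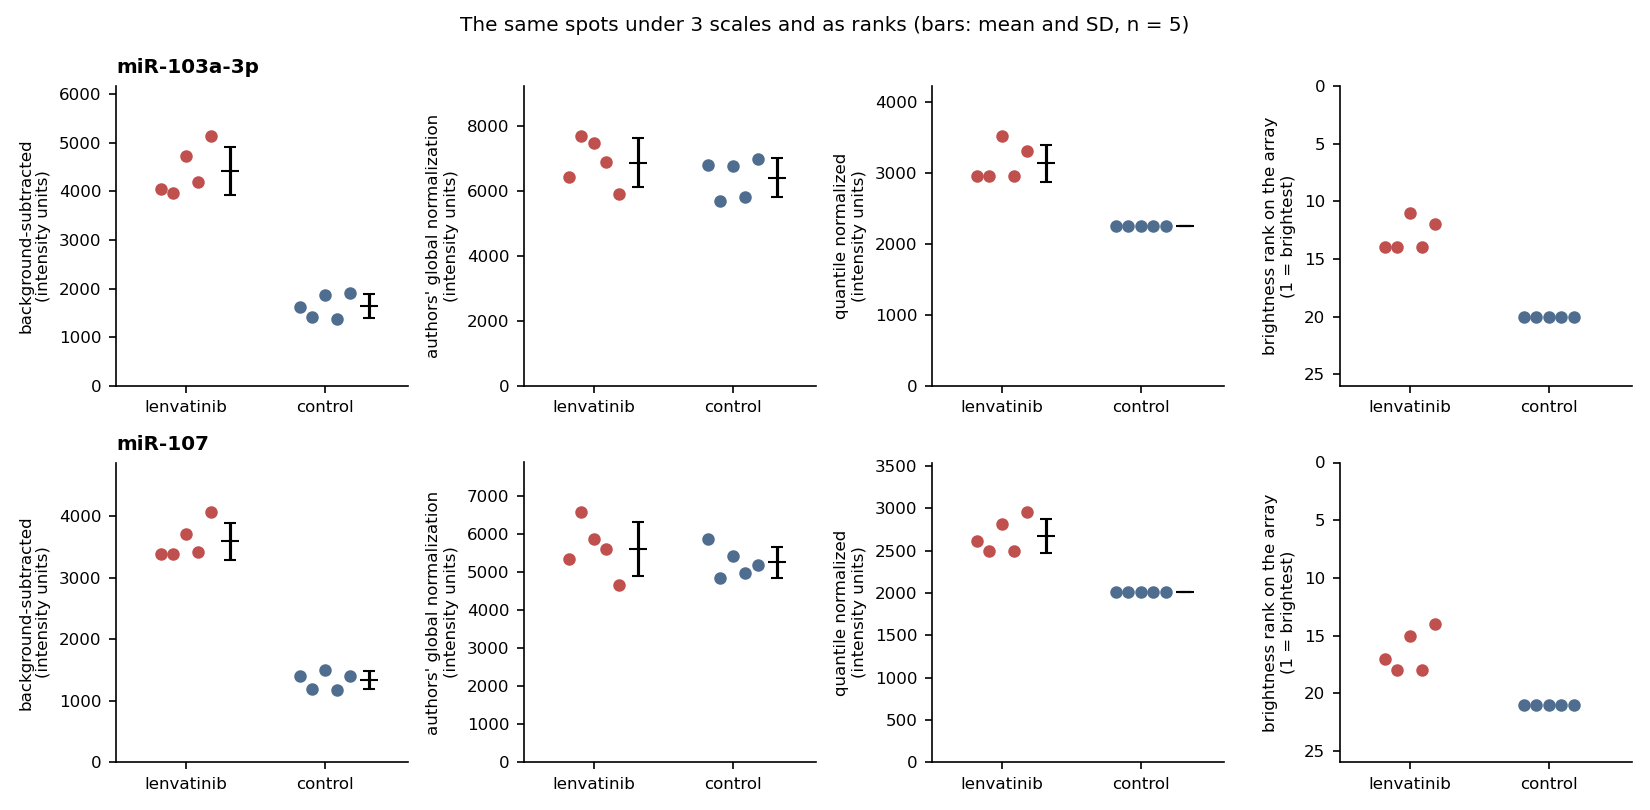
miR-103a-3p (top) and miR-107 (bottom) on each array as background-subtracted intensity, authors' globally normalized intensity, quantile-normalized intensity and brightness rank (1 is the brightest), with lenvatinib left of control. Bars give the mean and SD of 5 arrays, and the groups are apart on every panel except the global normalization, where they overlap.

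In the limma fit over 1346 probes, on quantile-normalized log2 values with Benjamini-Hochberg adjustment, miR-103a-3p rose by 0.47 ± 0.11 (log2 change, lenvatinib minus control, ± SE; adjusted p = 0.0108), a fold of 1.39 with a 95% interval of 1.17 to 1.64. miR-107 rose by 0.41 ± 0.11 (limma adjusted p = 0.0206), a fold of 1.33 with a 95% interval of 1.12 to 1.57. miR-103a-2-5p changed by -0.18 ± 0.19 in the same fit and did not pass (limma adjusted p = 0.571). Thus 2 of the 3 tested members were called, both higher, where 21.5% of all tested probes were called, 12.1% higher and 9.36% lower. The groups did not overlap for miR-103a-3p and miR-107 on this scale, which held for 20.0% of the tested probes. The control values of miR-103a-3p and miR-107 were nearly tied here (SD 0.0011 and 0.00063). The SE therefore does not reflect the spread of the control arrays before scaling. With no filter on dim probes, the same changes had an SE of 0.051 for miR-103a-3p and 0.047 for miR-107.

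Both calls belonged to the scale on which they were made. After scaling each array to its median, the log2 change of miR-103a-3p was 0.086 ± 0.16 (limma adjusted p = 0.757) and that of miR-107 was 0.074 ± 0.14 (limma adjusted p = 0.769). The sign turned after scaling to the 75th percentile, to -0.071 for miR-103a-3p (limma adjusted p = 0.738) and -0.083 for miR-107 (limma adjusted p = 0.662). Neither passed after scaling to the spike controls (0.21 for miR-103a-3p and 0.20 for miR-107, limma adjusted p = 0.303 and 0.307), after cyclic loess (0.16 and 0.13, limma adjusted p = 0.428 and 0.467) or with the authors' global normalization (0.099 and 0.087, limma adjusted p = 0.710 and 0.753). Scaling to the total signal, an alternative chosen after seeing the data, kept both calls, at 0.65 for miR-103a-3p and 0.64 for miR-107 (limma adjusted p = 0.00317 and 0.00184), where 42.9% of all probes were called. With no scaling at all 95.8% of the probes were called, all 3 tested members among them. The share of probes called was 22.3% with the median, 25.9% with the 75th percentile, 20.8% with the spike controls, 21.6% with cyclic loess and 18.4% with the global normalization. The median of all tested probes was -0.03 with quantile normalization, -0.05 with the median, -0.21 with the 75th percentile and 0.52 with the total signal, so each change is read against a different centre. The call for miR-107 also ended on quantile-normalized values without control replicate 1 (0.39, limma adjusted p = 0.0508), control replicate 3 (0.40, limma adjusted p = 0.0511) or control replicate 5 (0.40, limma adjusted p = 0.0545). It ended as well when undetected probes were left missing (0.32, limma adjusted p = 0.198). With the replicate number as a block in the fit, the miR-107 call ended too (0.41, limma adjusted p = 0.0557).

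**Figure D3:**
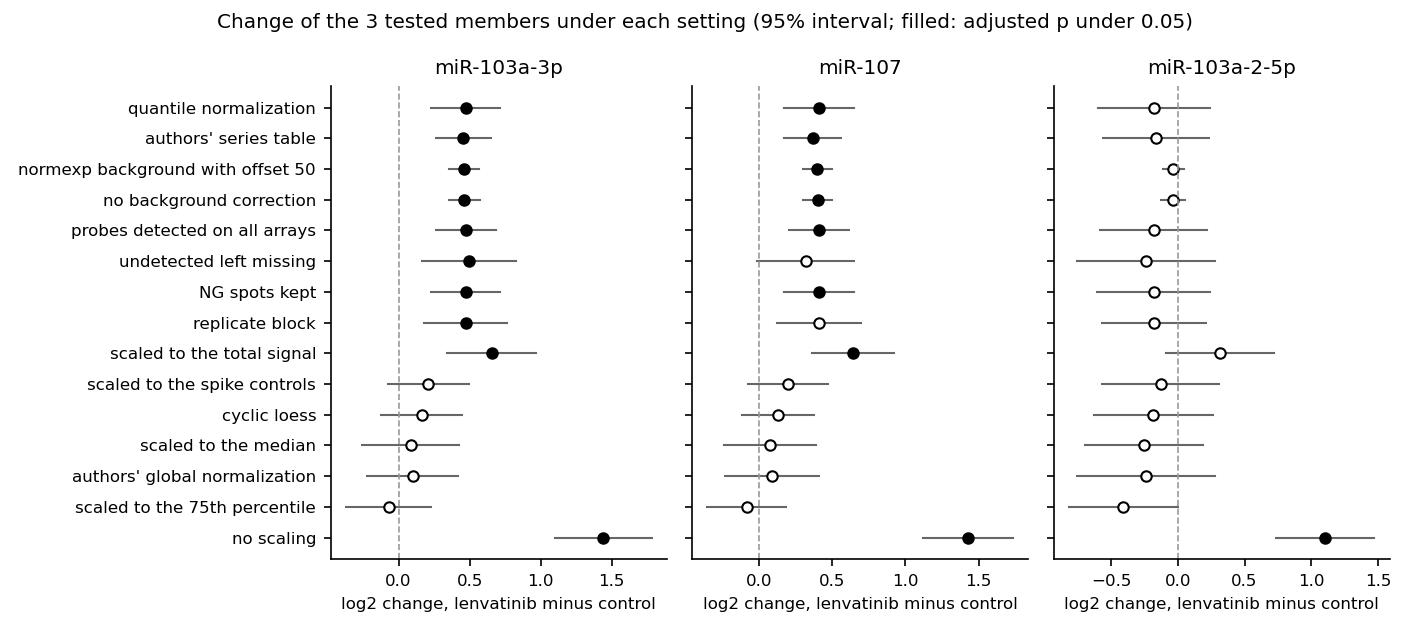
Log2 change (lenvatinib minus control) of the 3 tested members, 1 row per setting, with 95% intervals and filled points for an adjusted p under 0.05. For miR-103a-3p and miR-107 the points lie near 0 with median or 75th percentile scaling and to its right with quantile normalization, while miR-103a-2-5p is filled only with no scaling.

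The unscaled changes show where the members stood among the other probes. Over the 858 probes detected on all arrays with no spot marked bad, the median unscaled log2 change was 1.33, with quartiles of 1.01 and 1.67. miR-103a-3p lay at 1.44 and miR-107 at 1.43, so 59.8% and 58.6% of these probes had a smaller change. miR-103a-2-5p lay at 1.10, above 31.1% of the probes. All 3 tested members thus lay between the quartiles of these probes, most of which were dimmer than miR-103a-3p and miR-107. Among the 8 probes brighter than miR-103a-3p on all arrays, only miR-16-5p had a larger unscaled change (1.72). The others ranged from 0.052 (miR-4454) to 1.31 (miR-122-5p). As a share of the total signal of the array, which a few very bright probes dominate, miR-103a-3p made up 1.38% to 1.83% in lenvatinib arrays and 0.843% to 1.13% in control arrays. miR-107 made up 1.17% to 1.44% in lenvatinib arrays and 0.721% to 0.846% in control arrays, and neither pair of ranges overlapped. On this scale 40.2% of the 868 probes did not overlap, and miR-103a-2-5p did overlap.

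**Figure D4:**
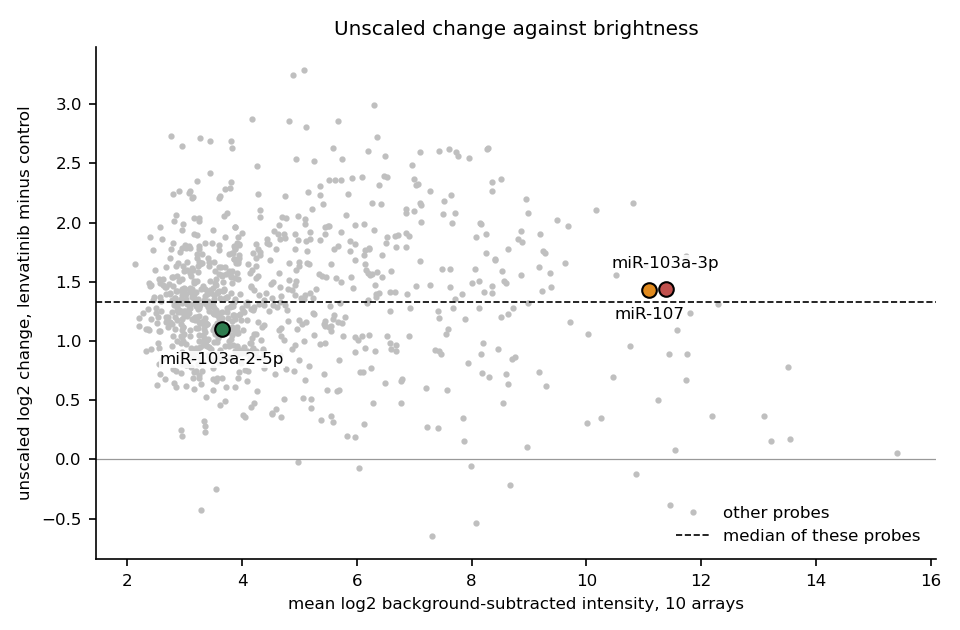
Unscaled log2 change (lenvatinib minus control) against mean log2 background-subtracted intensity over 10 arrays, with 1 point per probe detected on all arrays and the tested members in colour. miR-103a-3p and miR-107 lie together at 1.44 and 1.43, just above the dashed median of 1.33, and miR-103a-2-5p lies below it at 1.10.

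The probes that the members passed in brightness rank are named here, chosen after their values were seen. miR-103a-3p was dimmer than the miR-130a-3p, miR-4286, miR-5100 and miR-6089 probes on all 5 control arrays and brighter than these 4 on all 5 lenvatinib arrays. In the quantile-normalized limma fit these 4 probes had log2 changes of -0.91, -1.34, -1.07 and -0.60. Changes below that of miR-103a-3p were fixed by this choice, since quantile normalization keeps only the order of the probes. miR-107 passed 3 of the 4, miR-130a-3p, miR-4286 and miR-5100. On all 10 arrays 8 probes stayed brighter than miR-103a-3p and 11 stayed brighter than miR-107, miR-103a-3p among them.

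A factor per array cancels in the difference of log2 values within an array, so the members were compared with each other without any scaling, in 3 pairs. The log2 difference of miR-107 minus miR-103a-3p was -0.26, -0.23, -0.35, -0.30 and -0.34 in the lenvatinib arrays, against -0.22, -0.23, -0.32, -0.22 and -0.43 in the control arrays. These ranges overlapped, and the difference in change was -0.01, with a 95% interval of -0.11 to 0.09 (exact permutation test, two-sided, p = 0.810, adjusted over the 3 pairs 0.810). The interval covers the signals of the 2 probes, and how far each probe detects the other miRNA was not tested. After quantile normalization, where the control values were nearly tied, the difference was -0.061 (exact permutation, adjusted p = 0.0476).

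miR-103a-2-5p changed by 0.34 less than miR-103a-3p, the other arm, on the log2 scale, a difference of -0.34 with a 95% interval of -0.89 to 0.32 (exact permutation p = 0.230, adjusted 0.345). Against miR-107 the difference was -0.33, with an interval of -0.84 to 0.19 (exact permutation p = 0.206, adjusted 0.345). Neither difference passed on these unscaled subtracted values, and both intervals are wide beside that of the pair sharing a seed. The 5p probe lay near the detection limit on all arrays. Without background correction the same differences were -0.39 and -0.38 (exact permutation, adjusted p = 0.0119 each), on raw values that include the brighter background of the lenvatinib arrays. They passed as well after quantile normalization, at -0.65 and -0.59 (exact permutation, adjusted p = 0.0476 each). With normexp background correction they were -1.10 and -1.09 (exact permutation, adjusted p = 0.0119 each). That setting adds an offset of 50, which is larger than any subtracted value of miR-103a-2-5p. Such an offset damps the change of a dim probe more than that of a bright one, so no conclusion is drawn from it.

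Other miRNAs that carry AGCAGCA near the 5′ end share most of the seed letters, shifted by 1 base. They were the 7 probes besides the members whose RefSeq mature sequence holds AGCAGCA within bases 1 to 8, and most belong to the miR-15/16 family, known for restraining the cell cycle. Bases 2 to 8 are again in capitals, to set the shifted seed beside GCAGCAU above.
miR-16-5p: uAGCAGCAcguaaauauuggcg
miR-424-5p: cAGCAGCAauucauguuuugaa
miR-497-5p: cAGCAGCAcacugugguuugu
miR-15a-5p: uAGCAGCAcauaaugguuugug
miR-15b-5p: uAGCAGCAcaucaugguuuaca
miR-195-5p: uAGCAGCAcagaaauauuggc
miR-6838-5p: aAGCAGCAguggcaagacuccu
All 7 were tested, and in the quantile-normalized limma fit 2 were called higher, 1 was called lower and 4 did not pass. The median log2 change was 0.05 in the list and -0.03 over all tested probes, where 21.5% were called.

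miR-16-5p was at 12.15, 12.15, 12.15, 12.15 and 12.14 on the quantile-normalized log2 scale in the lenvatinib arrays, against 11.29, 11.35, 11.35, 11.23 and 11.35 in the control arrays, and rose by 0.83 ± 0.10 (limma adjusted p = 0.000246). Its call ended with the median (0.36, limma adjusted p = 0.132), the 75th percentile (0.21, limma adjusted p = 0.257) and the authors' global normalization (0.38, limma adjusted p = 0.155). Unlike those of the members, it held with the spike controls (0.49, limma adjusted p = 0.0262) and cyclic loess (0.47, limma adjusted p = 0.00864). miR-424-5p rose by 0.54 ± 0.11 (limma adjusted p = 0.00406), and its call held after median scaling (0.55, limma adjusted p = 0.0379). It ended when undetected probes were left missing (0.48, limma adjusted p = 0.0534). miR-497-5p fell by 0.60 on the log2 scale (SE 0.18, limma adjusted p = 0.0362), with overlapping groups of 2.84 to 3.77 in lenvatinib arrays and 3.69 to 4.10 in control arrays. Its call ended when any 1 of 8 arrays was removed (limma adjusted p between 0.0508 and 0.0802), and held without lenvatinib replicate 2 or control replicate 5. The miR-497-5p call also ended with the spike controls (-0.54, limma adjusted p = 0.0726), the authors' global normalization (-0.65, limma adjusted p = 0.0837) and the total signal (-0.099, limma adjusted p = 0.664). With no filter on dim probes (limma adjusted p = 0.0809) or undetected probes left missing (limma adjusted p = 0.0954) it ended as well. The 4 that did not pass had log2 changes of 0.26 (miR-15a-5p), 0.02 (miR-15b-5p), 0.05 (miR-195-5p) and -0.67 (miR-6838-5p). A shared AGCAGCA therefore went with values of both signs, but the 2 values below 0 came from the dimmest probes of the list. In the lenvatinib arrays miR-497-5p had a subtracted intensity of 10.5 to 19.5, beside 15.1 to 21.6 for miR-103a-2-5p. miR-6838-5p was at 4.87 to 11.3 on 4 lenvatinib arrays and was not detected on lenvatinib replicate 5. The 5 brighter probes were all above 0, and whether the sign followed the brightness was not tested.

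Because the members are known for a role in insulin and lipid metabolism, 12 miRNAs with known roles in those processes were set beside them. Of these, 9 were tested, 1 was called higher, 4 were called lower and 4 did not pass, with a median log2 change of -0.19 against -0.03 over all tested probes. Over all tested probes 21.5% were called, 12.1% higher and 9.36% lower. miR-33b-5p and miR-802 were detected on no array, and miR-33a-5p, which restrains cholesterol export, on 2 lenvatinib and 2 control arrays.

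The miRNAs called lower were the miR-29 family and miR-378a-3p. miR-29b-3p was at 7.29, 7.02, 7.29, 6.77 and 6.74 in the lenvatinib arrays, against 8.92, 9.06, 9.17, 8.87 and 9.25 in the control arrays, on the quantile-normalized log2 scale. It fell by 2.03 (SE 0.16, limma adjusted p = 1.98e-05) and did not overlap between the groups. miR-29a-3p fell by 0.74 (limma adjusted p = 0.000721), and miR-29c-3p fell by 1.10 (limma adjusted p = 0.0295). The call for miR-29c-3p ended after median scaling (-0.87, limma adjusted p = 0.108) and without lenvatinib replicate 4 (-1.09, adjusted p = 0.0512), control replicate 1 (-1.07, adjusted p = 0.0622), control replicate 3 (-1.04, adjusted p = 0.0671) or control replicate 5 (-1.09, adjusted p = 0.0581). It ended too with the spike controls (-0.75, limma adjusted p = 0.150), the authors' global normalization (-0.86, limma adjusted p = 0.133) and no filter on dim probes (-1.10, limma adjusted p = 0.112). miR-378a-3p, which is encoded within PPARGC1B, fell by 0.87 (limma adjusted p = 0.000851). Without scaling, the signs of miR-29a-3p (0.62), miR-29c-3p (0.48) and miR-378a-3p (0.68) were positive, as for most probes. With the total signal, the scale that kept the members' calls, the calls of miR-29a-3p (-0.17, limma adjusted p = 0.275), miR-29c-3p (-0.31, limma adjusted p = 0.389) and miR-378a-3p (-0.11, limma adjusted p = 0.576) ended, while that of miR-29b-3p held (-1.32, limma adjusted p = 3.13e-05).

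miR-122-5p, the abundant hepatocyte miRNA with a role in cholesterol metabolism, was called higher at 0.35 ± 0.10 (limma adjusted p = 0.0314), and its sign turned after median scaling (-0.043) and after scaling to the 75th percentile (-0.20). Its call also ended without lenvatinib replicate 1, 3 or 4 or control replicate 1, 3 or 5, with log2 changes of 0.34 to 0.37 and limma adjusted p of 0.0522 to 0.0777. With the replicate number as a block it ended as well (0.35, limma adjusted p = 0.0799). The miR-122-5p call ended too with the spike controls (0.080, limma adjusted p = 0.717) and cyclic loess (0.098, limma adjusted p = 0.681). The same held for the authors' global normalization (-0.030, limma adjusted p = 0.920) and undetected probes left missing (0.32, limma adjusted p = 0.203). It held in 12 of 25 alternatives. Of the 4 that did not pass, the log2 changes were 0.20 for miR-34a-5p, 0.10 for miR-143-3p, -0.19 for miR-378a-5p and -0.00073 for miR-26a-5p. The groups of miR-34a-5p did not overlap, and it passed with the median (0.44, limma adjusted p = 0.0364), the spike controls (0.56, limma adjusted p = 0.00560) and the authors' global normalization (0.45, limma adjusted p = 0.0413). The value of miR-26a-5p leaves out lenvatinib replicate 5, whose spot was marked NG, and it was -0.42 with that spot kept (limma adjusted p = 0.490).

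**Figure D5:**
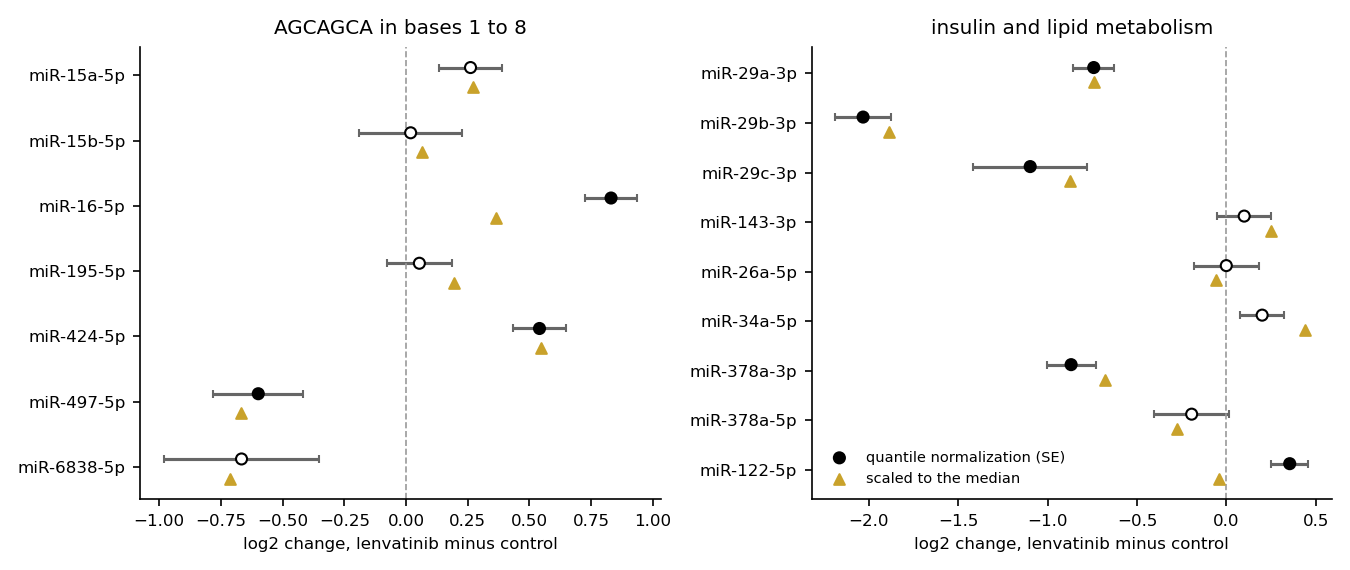
Log2 change (lenvatinib minus control) of the 7 tested AGCAGCA miRNAs (left) and the 9 tested insulin and lipid miRNAs (right), as circles with SE for quantile normalization (filled where the adjusted p was under 0.05) and triangles for median scaling. miR-16-5p and miR-122-5p move most towards 0 between the scales, while miR-29b-3p stays far to the left on both.

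The probe patterns most like those of the members were sought among 855 other probes detected on all arrays, as the smallest root mean square difference over the 10 arrays between log2 values centred on each probe's mean. On quantile-normalized values, the 3 closest to miR-103a-3p were miR-4530 (0.0951), miR-122-5p (0.0998) and miR-424-5p (0.100). The 3 closest to miR-107 were miR-4530 (0.0715), miR-122-5p (0.0801) and miR-6820-5p (0.0836). miR-103a-3p and miR-107 were closer to each other than to any of these, at 0.0505, beside a median over the compared probes of 0.398 for miR-103a-3p. All these probes share the arrays and the normalization. After median scaling, an alternative chosen after seeing the data, 0 of the 3 closest probes remained for either member. The closest became miR-182-5p, at 0.0845 for miR-103a-3p and 0.0526 for miR-107, while the 2 members differed by 0.0670.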

How the data were processed

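Labelled RNA of 5 lenvatinib and 5 control samples of HuH-7 was measured on 3D-Gene miRNA arrays with Cy5, per the labels' protocols. Per the file headers, the deposited intensity columns hold raw brightness, background-subtracted and globally normalized values on a linear scale. From the values, background was 1 number per array. No source used here names the image software.

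Spots marked NG were left out (10 on lenvatinib replicate 5, 1 on lenvatinib replicate 1 and 2 on control replicate 5, no member among them). A probe not detected took the lowest value detected on that array, and log2 values were quantile normalized. The deposited series table, in linear intensity for 803 probes, served as an alternative. All arrays detected 868 of the 2565 probes, and no array detected 641 of them. The 1346 probes detected on at least 5 arrays were fitted with limma 3.58.1 in R 4.3.3 (lmFit and eBayes, two-sided, Benjamini-Hochberg over all, threshold 0.05), which gave the adjusted p of every miRNA. The fit was tested on simulated data. Pairs of members and blank spots were compared by exact permutation over 252 splits. The number of arrays limits the precision.

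The members, lists, tests and naming rule were chosen with earlier results of these data known. The rule named the 4 members, every tested AGCAGCA miRNA, the called and up to 3 other insulin and lipid miRNAs (all 4 are given), and the 3 closest patterns. Sequences were matched by name to RefSeq, GRCh38.p14, for 2264 of 2565 probes.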

Additional observations from a re-analysis of the deposited data

Results flagged for a closer look

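In 12 of 60 groups of 5 arrays examined, 1 array lay apart from the other 4 by Dixon's criterion. Its chance rate of about 1 in 20 holds for independent values without ties. Several of these groups held tied or nearly tied quantile values, so the share was not read against that rate. Lenvatinib replicate 5 was the array in 7 of them. Its blank spots averaged 85.7, against 62.3 to 65.0 in the other lenvatinib arrays, and the raw brightness of miR-103b on it was 82.2, against 62.3 to 65.5. On the quantile-normalized log2 scale this array was lowest for miR-29c-3p (4.40, against 5.74 to 6.27). It was highest for miR-34a-5p (7.27, against 6.88 to 6.89) and miR-424-5p (9.47, against 9.44 in the others). For miR-34a-5p and miR-424-5p the other lenvatinib arrays were nearly tied.

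Further near-ties were seen, where the other arrays of the group held the same or almost the same quantile value. They were miR-16-5p at 12.14 and miR-122-5p at 12.47 on lenvatinib replicate 5, and miR-103a-3p at 11.14 and miR-107 at 10.97 on control replicate 5. miR-15b-5p was at 8.82 on control replicate 3, against 9.32 to 9.36 in the other control arrays. On control replicate 4, miR-195-5p was at 5.04, against 5.38 to 5.48, and miR-122-5p at 12.04, against 12.15 in 3 others and 12.14 in the fourth.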

How the results depend on the processing

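In 25 alternatives the call held 20 times for miR-103a-3p and 15 times for miR-107, but most of these alternatives kept quantile normalization. Among the other ways of scaling, both calls held only with the total signal and with no scaling. Both log2 changes were lower and did not pass with the median (0.086 for miR-103a-3p and 0.074 for miR-107), the spike controls (0.21 and 0.20), cyclic loess (0.16 and 0.13) and the authors' global normalization (0.099 and 0.087), and they turned to -0.071 and -0.083 with the 75th percentile. With undetected probes left missing, miR-107 was at 0.32 and no longer called. Leaving out 1 array at a time gave 0.44 to 0.50 for miR-103a-3p (limma adjusted p from 0.00428 to 0.0284), 0.38 to 0.46 for miR-107 (0.00727 to 0.0545) and -0.27 to -0.043 for miR-103a-2-5p. Samples with the same number were weakly alike, with correlations from 0.000846 to 0.14, and 3 of 5 were most like their own number. Whether they were paired is not stated in the sources used here. With the replicate block the changes were 0.47 for miR-103a-3p (limma adjusted p = 0.0373) and 0.41 for miR-107 (0.0557), and 257 probes were called in place of 289. The block also ended the call of miR-122-5p (0.35, adjusted p = 0.0799).

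Probes called over all 1346 numbered 1289 with no scaling and 577 with the total signal. They numbered 182 with undetected probes missing, where detection in both groups was also required. With 1 array left out they numbered 227 to 337, with the detection filter applied anew. With the 75th percentile 8.25% of probes were called higher and 17.7% lower, against 12.1% and 9.36% with quantile normalization. The difference of miR-107 minus miR-103a-3p was -0.061 after quantile normalization (exact permutation, adjusted p = 0.0476) and -0.049 to 0.0057 with 1 array left out, with the sign turned, at 0.0018, 0.0057, 0.0011 and 0.0034, without lenvatinib replicate 3 or control replicate 1, 2 or 4. miR-103a-2-5p minus miR-103a-3p was -0.65 after quantile normalization, -0.39 without background correction and -1.10 with normexp and its offset of 50. Minus miR-107 it was -0.59, -0.38 and -1.09. These passed (adjusted p = 0.0476 or 0.0119), while leaving out 1 array gave -0.47 to -0.19 and -0.45 to -0.20. With the replicate block the smallest p possible was 0.0625.

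Signs turned with no scaling for miR-103a-2-5p (1.10), miR-497-5p (0.69), miR-6838-5p (0.64), miR-29a-3p (0.62), miR-29c-3p (0.48), miR-26a-5p (1.21), miR-378a-3p (0.68) and miR-378a-5p (1.08), and with the total signal for miR-103a-2-5p (0.32), miR-26a-5p (0.42) and miR-378a-5p (0.29). miR-122-5p was at -0.043 with the median, -0.20 with the 75th percentile and -0.030 with global normalization. miR-15b-5p was at -0.092 with the 75th percentile and -0.090 to 0.19 with 1 array left out, and miR-195-5p at -0.019 with undetected probes missing and -0.020 to 0.11 with 1 array left out. miR-26a-5p was at 0.045 with the spike controls, 0.0017 with normexp, 0.00053 without background correction and -0.14 to 0.14 with 1 array left out. Blank spots were 1.91 to 2.09 times brighter in lenvatinib arrays with 1 array left out. Signal close to background limits miR-103a-2-5p, miR-103b, miR-497-5p and miR-6838-5p.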
